A study of Mus musculus with 2 samples.

Results

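The genes of the proteasome, the protease that degrades most short-lived proteins of the cell, were followed in mouse primary aortic vascular smooth muscle cells (VSMCs) infected with an adenovirus that carries Klf5. Members were the genes whose symbol begins with Psm, 1 of the letters a to g and a digit, and 48 of the 11263 gene symbols in the deposited table met this rule. All 48 had a mean of at least 1 FPKM (fragments mapped to a gene, scaled for transcript length and library size) over both libraries, the minimum set for a gene to count as measured, as did 10157 symbols in all. Psma8, the testis-specific alpha subunit, and Psmb11, the thymic catalytic subunit, are named alike and were not analysed here, since the table used here lists neither. The labels name 1 library per group. Ad-Ctl is the control adenovirus encoding GFP, a fluorescent protein, and Ad-Klf5 encodes the transcription factor Klf5. By the study's methods the cells came from aortas of male mice and were kept in serum-free medium for the infection of 36 hours. Whether angiotensin II, which followed infection elsewhere in the study, was given to these cultures is not stated. The strain in the labels is C57BL/6 for the Ad-Ctl cells but C57BL/7 for the others, so strain and infection cannot be told apart. The study's methods name no strain for these cells, so whether this difference between labels is real is unknown. How many mice gave the cells of a library is not stated in the sources used here.

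The proteasome is a barrel of stacked rings closed by caps. The outer rings of the barrel, or core particle, are made of alpha subunits that gate the entrance, and the inner rings of beta subunits, of which Psmb5, Psmb6 and Psmb7 carry the active sites. The regulatory particle that caps the barrel has a base, whose ATPases unfold substrates, and a lid, which removes ubiquitin chains. Under interferon, Psmb8, Psmb9 and Psmb10 take the places of the 3 constitutive catalytic subunits and form the immunoproteasome, which favours peptides that fit class I molecules of the major histocompatibility complex (MHC). In mammalian cells whose proteasome is inhibited, the factor Nfe2l1 (Nrf1) acts on many proteasome genes through antioxidant response elements in their promoters. In smooth muscle, ubiquitin-dependent turnover is known for removing cell cycle and contractile proteins during changes of cell state.

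The promoters of the catalytic subunits that compete for the same places, and of Psmb3 and Psmg4, which had the highest and the third highest ratio of the members, show how different the start regions of these genes are. Each runs from 250 bases before to 50 bases after the start of the gene, in the direction of transcription, as RefSeq gives it on GRCm38.p6. A window of this kind was at hand for 41 of the 48 members, with none for Psmb7. Capitals mark matches on either strand to TGACNNNGC (the core of the antioxidant response element), GAAA, any 2 bases and GAAA (the interferon-stimulated response element) or TTCNNNGAA (the gamma-activated site).
Psmb5 (chr14:54617946-54618245, minus strand): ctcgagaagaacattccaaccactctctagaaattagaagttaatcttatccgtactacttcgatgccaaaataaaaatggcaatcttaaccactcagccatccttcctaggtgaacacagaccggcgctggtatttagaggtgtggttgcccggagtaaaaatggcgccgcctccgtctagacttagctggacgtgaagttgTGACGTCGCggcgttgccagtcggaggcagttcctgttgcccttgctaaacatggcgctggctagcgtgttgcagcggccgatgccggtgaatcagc
Psmb6 (chr11:70525107-70525406, plus strand): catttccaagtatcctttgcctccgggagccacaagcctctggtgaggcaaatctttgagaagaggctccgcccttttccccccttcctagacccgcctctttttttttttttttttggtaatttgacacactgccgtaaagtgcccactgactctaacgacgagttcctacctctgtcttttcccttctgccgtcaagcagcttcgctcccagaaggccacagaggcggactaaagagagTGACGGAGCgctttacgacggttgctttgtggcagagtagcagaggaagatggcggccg
Psmb8 (chr17:34197945-34198244, plus strand): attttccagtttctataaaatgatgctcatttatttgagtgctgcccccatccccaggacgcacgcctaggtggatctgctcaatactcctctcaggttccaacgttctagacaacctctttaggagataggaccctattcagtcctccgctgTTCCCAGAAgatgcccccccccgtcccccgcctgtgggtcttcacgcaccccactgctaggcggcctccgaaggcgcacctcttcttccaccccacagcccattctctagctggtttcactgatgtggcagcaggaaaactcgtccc
Psmb9 (chr17:34187281-34187580, minus strand): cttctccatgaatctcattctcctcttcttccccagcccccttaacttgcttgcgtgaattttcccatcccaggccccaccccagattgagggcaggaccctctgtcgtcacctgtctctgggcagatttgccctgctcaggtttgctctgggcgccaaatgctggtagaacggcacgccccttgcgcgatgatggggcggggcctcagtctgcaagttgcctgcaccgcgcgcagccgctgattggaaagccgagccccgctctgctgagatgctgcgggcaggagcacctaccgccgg
Psmb10 (chr8:105938343-105938642, minus strand): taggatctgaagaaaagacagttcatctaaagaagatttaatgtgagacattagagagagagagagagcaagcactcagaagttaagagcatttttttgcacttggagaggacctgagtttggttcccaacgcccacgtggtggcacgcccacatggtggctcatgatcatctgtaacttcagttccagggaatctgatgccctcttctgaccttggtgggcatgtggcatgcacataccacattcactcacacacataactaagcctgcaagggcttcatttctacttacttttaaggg
Psmb3 (chr11:97703184-97703483, plus strand): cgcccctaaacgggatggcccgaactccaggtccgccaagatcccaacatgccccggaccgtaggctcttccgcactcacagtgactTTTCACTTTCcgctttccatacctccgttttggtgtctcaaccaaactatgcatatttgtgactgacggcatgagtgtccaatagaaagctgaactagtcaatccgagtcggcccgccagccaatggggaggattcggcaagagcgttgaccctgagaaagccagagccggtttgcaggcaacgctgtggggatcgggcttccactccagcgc
Psmg4 (chr13:34162714-34163013, plus strand): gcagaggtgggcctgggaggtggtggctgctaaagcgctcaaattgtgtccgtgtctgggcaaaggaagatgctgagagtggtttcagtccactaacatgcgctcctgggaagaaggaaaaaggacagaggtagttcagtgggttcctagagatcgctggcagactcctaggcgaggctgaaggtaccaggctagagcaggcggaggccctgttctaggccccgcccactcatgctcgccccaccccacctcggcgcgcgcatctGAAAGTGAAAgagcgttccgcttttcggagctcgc
Psmb5 holds TGACGTCGC at position -47 and Psmb6 holds TGACGGAGC at -9, counting the start base as 0. Psmb8 holds TTCCCAGAA at -97, while the windows of Psmb9 and Psmb10 hold none of the 3 motifs. Psmb3, on its minus strand at -163, and Psmg4, at 15, hold the same letters, GAAAGTGAAA. These motifs and 4 more were searched on both strands after the values of the genes had been seen, so their counts are descriptions. TGACNNNGC was found in 6 of the 41 windows (14.6%) and in 14.8% of the 7969 windows of measured genes. The 6 were those of Psmb5, Psmb6, Psmc6, Psmd9, Psmd12 and Psme4. The interferon-stimulated element was found in 5 (12.2%, against 3.14%), which were those of Psmb3, Psmd4, Psmd9, Psme1 and Psmg4, and the match in Psmd9 is a run of A broken by G. TTCNNNGAA, which reads alike on both strands, was found in 3 (7.32%, against 6.71%). CCGGAA, the core read by ETS factors, was in 20 (48.8%, against 31.1%) and CCAAT in 14 (34.1%, against 39.9%). GGGCGG and GGGTGG, the GC-rich and CACCC letters that Krüppel-like and Sp factors read, were in 23 (56.1%, against 68.9%) and 12 (29.3%, against 36.8%). TGAC also opens the sites of AP-1 and CREB, and none of these letters shows that a factor was bound.

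Klf5 itself was at 1.76 FPKM in Ad-Ctl against 2.62 FPKM in Ad-Klf5 (log2 ratio 0.39), and since the species of the cDNA is not stated, whether this counts the viral transcript is unknown. The FPKM total was 278962 for Ad-Ctl and 300045 for Ad-Klf5, the depth in reads is unknown, and no value here has a replicate or an interval. Of 10 VSMC markers 8 were listed, with 312.7 and 281.2 FPKM in sum, while Myh11 and Myocd, which define contractile smooth muscle, were not listed. Most of that sum was Acta2, at 228.7 and 200.7 FPKM. In Ad-Ctl, Tagln, Cald1, Smtn and Myl9 lay between 10.3 and 24.9 FPKM. Lmod1 was at 4.27 FPKM there, Des at 1.76 FPKM and Cnn1 at 0.78 FPKM, below the minimum for a measured gene. No endothelial marker of 6 was listed, and of 8 leukocyte markers only Cd68 and Cd74 were, with 28.5 and 28.8 FPKM in sum. Of 8 mesothelial markers 5 were listed, at 24.0 FPKM in Ad-Ctl against 127.4 FPKM in Ad-Klf5 in sum, and 3 of 6 fibroblast markers, at 607.7 and 507.7 FPKM. The part of these differences in the proteasome values was not tested. In bulk RNA, fewer cells of a type and less RNA per cell cannot be told apart.

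Most proteasome genes had a higher value in the Ad-Klf5 library, by a modest amount that differed between genes. The log2 ratio, taken as log2(FPKM + 1) of the Ad-Klf5 library less that of Ad-Ctl, was above 0 in 40 of the 48 members (83.3%), against 47.9% of the 10157 genes measured. Its median was 0.30 over the members and -0.017 over all genes, and the members ran from -0.39 to 0.70. Together the members took 3002 FPKM in Ad-Ctl against 3819 FPKM in Ad-Klf5, or 1.08% and 1.27% of the FPKM of each library. At a fold of at least 1.5, 4 members were higher, against 4.44% of all genes, and 0 were lower, against 5.48%. No member reached 2-fold in either direction, against 0.975% of all genes higher and 0.679% lower. With both libraries scaled to the same FPKM sum, the median of all genes moved to -0.11 and that of the members to 0.20, and 39 of the 48 were above 0, against 37.2% of all genes. Of all genes 298 were then at least 1.5-fold higher and 874 lower, in place of 451 and 557. Psmb3 was the 1 member then at least 1.5-fold higher. The order of the members by level was nearly the same in both libraries (Spearman's rho 0.99 over the 48 genes, all read from the same 2 libraries, as a description).

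**Figure D1:**
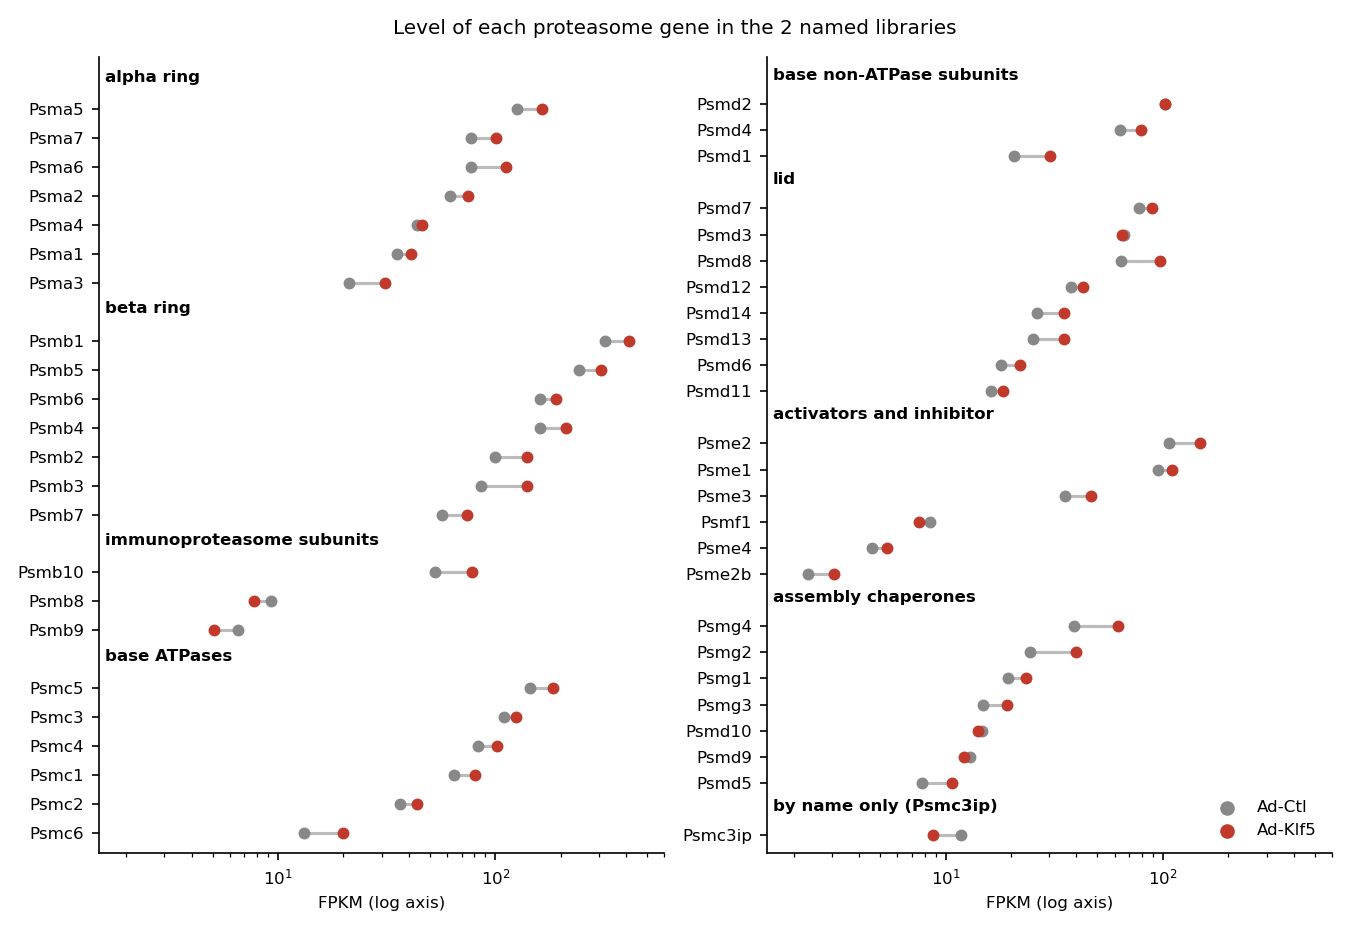
FPKM (log axis) of each of the 48 proteasome genes in Ad-Ctl (grey) and Ad-Klf5 (red), 1 library each, joined by a line and grouped by role. In 40 genes the red point lies to the right of the grey one, and Psmb1 is at the top with 318.6 and 413.3 FPKM.

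All 7 alpha subunits and all 7 standard beta subunits were higher in Ad-Klf5, and the medians were 0.38 for the alpha ring and 0.39 for the beta ring. At a common FPKM sum, Psma4 alone of the 14 was no longer above 0, at -0.019. Of the alpha ring, Psma3 was at 21.1 FPKM in Ad-Ctl against 31.2 FPKM in Ad-Klf5 (0.54), the lowest level and the highest ratio of the ring. Psma5 had the highest level, 125.5 and 164.3 FPKM (0.39), and Psma4 the lowest ratio (0.084), with 43.4 and 46.1 FPKM. The alpha subunits occupy the ring in equal number, yet their transcripts spanned 5.94-fold in Ad-Ctl and 5.27-fold in Ad-Klf5. The ratios of the other alpha genes were 0.53 for Psma6, 0.38 for Psma7, 0.26 for Psma2 and 0.20 for Psma1, whose levels lay between 35.3 and 111.9 FPKM.

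In the beta ring, Psmb3, a subunit without catalytic activity (ENSMUSG00000069744.7, chromosome 11 from 97703399 to 97713500 on GRCm38), had the highest ratio of all members. It was at 86.3 FPKM in Ad-Ctl against 140.3 FPKM in Ad-Klf5 (0.70). Psmb1, another non-catalytic subunit, had the highest level of all members, 318.6 and 413.3 FPKM (0.37). The 3 catalytic subunits stood lower in the order of ratios than Psmb3. Psmb6, the caspase-like site, was at 159.9 and 190.3 FPKM (0.25), the lowest ratio of the ring. Psmb5, the chymotrypsin-like site and target of the inhibitor bortezomib, was at 242.5 and 306.3 FPKM (0.34). Psmb7, the trypsin-like site, was the lowest of the ring in level, at 56.7 and 74.4 FPKM (0.39). So the transcripts of the catalytic subunits differed more between genes within a library than any of them did between libraries. Psmb2 had a ratio of 0.49 and Psmb4 of 0.40.

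**Figure D2:**
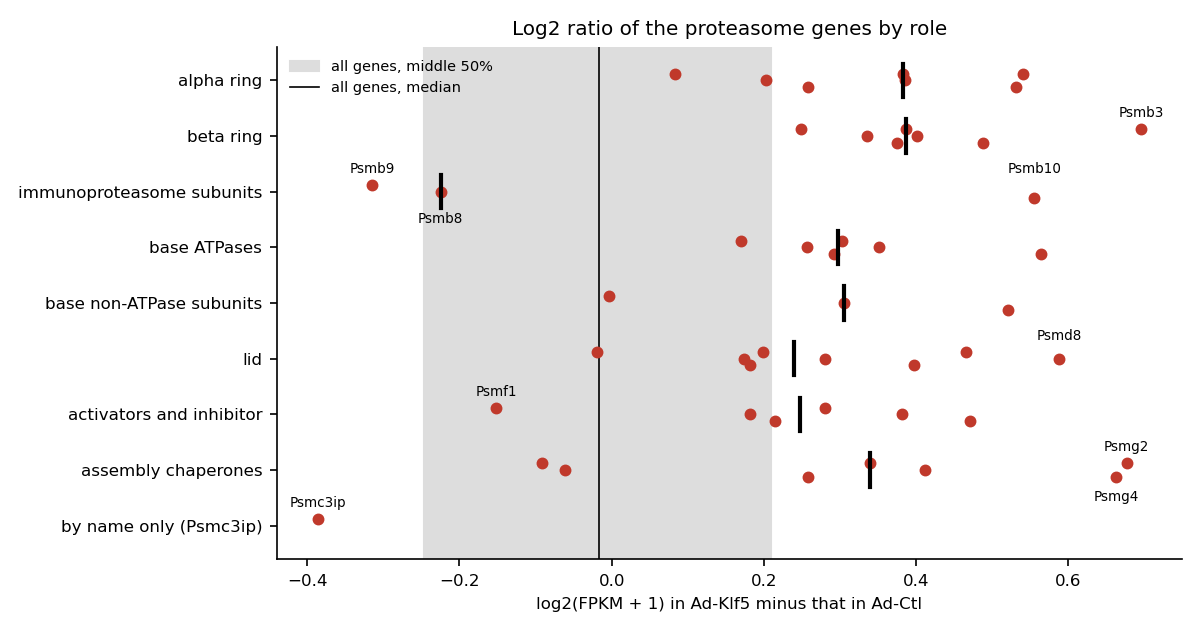
Log2 ratio of each proteasome gene (red points, 1 library per group), by role. Black bars are group medians, the vertical line and the grey band are the median (-0.017) and the interquartile range (-0.25 to 0.21) of the 10157 genes measured, and the catalytic subunits Psmb8 and Psmb9 lie left of 0 while Psmb10 is at 0.56.

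The immunoproteasome genes divided. Psmb9 (ENSMUSG00000096727.2, chromosome 17 from 34181988 to 34187764) was at 6.54 FPKM in Ad-Ctl against 5.06 FPKM in Ad-Klf5 (-0.31). Psmb8 (ENSMUSG00000024338.14, chromosome 17 from 34197721 to 34201454) was at 9.28 and 7.79 FPKM (-0.22). Both are encoded in the MHC, with the gene Tap1 between them, and were lower in Ad-Klf5, whereas Psmb10 was higher. Psmb10 (ENSMUSG00000031897.9, chromosome 8 from 105935735 to 105938444) was at 52.6 and 77.8 FPKM (0.56). Within each library the level of an immunoproteasome gene can be set against the constitutive gene whose place it takes. Psmb9 was at 4.09% of Psmb6 in Ad-Ctl and 2.66% in Ad-Klf5. Psmb8 was at 3.83% of Psmb5 and then 2.54%. Psmb10 was at 92.8% of Psmb7 and then 104.5%, so that only the pair of the trypsin-like site had nearly equal transcripts. In sum the 3 immunoproteasome genes were at 14.9% of the 3 constitutive ones in Ad-Ctl and 15.9% in Ad-Klf5, and most of that sum was Psmb10.

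The genes beside Psmb8 and Psmb9 in the MHC were also lower in Ad-Klf5. Tap1 and Tap2, which form the pump that carries proteasome products into the endoplasmic reticulum, were at 21.3 and 12.1 FPKM (-0.77) and at 24.99 and 15.1 FPKM (-0.69). H2-DMb1, which helps load class II molecules, was at 29.4 and 21.7 FPKM (-0.42). Exons of Psmb9 overlap Tap1 on the other strand, and since the sources used here do not say whether counting used strand, reads of the pair cannot be told apart. The same holds for 12 members in all that overlap a gene on the opposite strand, among them Psma4, Psma5, Psmb7, Psmb8, Psmc3, Psmd3 and Psme1, and 4 members (Psmb5, Psmd1, Psme2b and Psmg3) overlap another gene on their own strand. Of the leukocyte markers, Cd74 was at 28.3 and 27.8 FPKM and Cd68 at 0.23 and 0.94 FPKM, and their part in the immunoproteasome values was not tested. Of 15 interferon-response genes measured, 6 were above 0, with a median of -0.16, whereas in the remaining difference (the authors' means of each group without the share of the named library) 12 of 15 were above 0, with a median of 0.24. Among them Irf9 (-0.98) and Ifit3 (-0.66) were lower, and Ifit1 (0.88) and Rsad2 (0.74) higher.

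The base and the lid had somewhat lower ratios than the core. The 6 ATPases, which form the unfolding ring, were all higher, with a median of 0.30. Psmc6 was the lowest of them in level and the highest in ratio, at 13.2 FPKM in Ad-Ctl against 19.9 FPKM in Ad-Klf5 (0.56). Psmc5 had the highest level, 144.6 and 184.8 FPKM (0.35), and Psmc3 the lowest ratio, 0.17, at 110.1 and 123.9 FPKM. The other ATPases, Psmc1, Psmc2 and Psmc4, had ratios of 0.30, 0.26 and 0.29. Of the scaffold and ubiquitin-binding subunits of the base, Psmd1 was at 20.7 and 30.2 FPKM (0.52), and Psmd2, its paralogous scaffold, at 102.6 and 102.4 FPKM (-0.0031). The pair that dock ubiquitin ligands and shuttles thus stood at different levels and only 1 of them was higher. Psmd4, the ubiquitin receptor, was at 63.7 and 79.0 FPKM (0.30).

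In the lid, 7 of 8 genes were above 0, with a median of 0.24. Psmd8 (ENSMUSG00000030591.17, chromosome 7 from 29174188 to 29180701) had the highest ratio and the highest level in Ad-Klf5, 64.0 and 96.7 FPKM (0.59). Psmd3 was the 1 lid gene below 0, at 66.0 and 65.1 FPKM (-0.020), a difference of under 1 FPKM. Psmd14, the metalloprotease that cuts ubiquitin chains from substrates, was at 26.4 and 35.1 FPKM (0.40). Psmd7, its inactive partner, had the highest level in Ad-Ctl, 77.7 FPKM, and was at 89.3 FPKM in Ad-Klf5 (0.20). So the catalytic and the inactive member of this pair were both higher, by unlike amounts. Psmd11, the lowest in level, was at 16.1 and 18.4 FPKM (0.18). The ratios of Psmd13, Psmd6 and Psmd12 were 0.47, 0.28 and 0.17.

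The activators that can replace the cap, and the inhibitor, gave a median of 0.25, with 5 of 6 above 0. Psme1 and Psme2, which together form the interferon-inducible activator PA28, were at 95.1 and 110.5 FPKM (0.21) and at 107.1 and 148.8 FPKM (0.47). They lie close together on chromosome 14 and both were higher, unlike Psmb8 and Psmb9. Psme3, the nuclear activator, was at 35.5 and 46.5 FPKM (0.38), and Psme4 (PA200) at 4.60 and 5.36 FPKM (0.18). Psmf1, which encodes the inhibitor PI31, was the 1 gene of the group below 0, at 8.45 and 7.51 FPKM (-0.15). Psme2b, at 2.34 and 3.05 FPKM (0.28), is an intronless copy whose transcript matched that of Psme2 in 99.4% of 794 aligned bases, so its value is uncertain.

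The assembly chaperones held 2 of the 4 members that were at least 1.5-fold higher. Psmg2 (ENSMUSG00000024537.4, chromosome 18 from 67641599 to 67654162), which with Psmg1 guides the alpha ring together, was at 24.5 FPKM in Ad-Ctl against 39.8 FPKM in Ad-Klf5 (0.68). Psmg4 (ENSMUSG00000071451.10, chromosome 13 from 34162964 to 34178173), which acts with Psmg3, was at 38.8 and 62.0 FPKM (0.66). Their partners were higher by less: Psmg1 was at 19.4 and 23.4 FPKM (0.26), and Psmg3 at 14.9 and 19.1 FPKM (0.34). The 3 chaperones of the base did not move together. Psmd5 was at 7.79 and 10.7 FPKM (0.41), whereas Psmd9 was at 13.0 and 12.1 FPKM (-0.092) and Psmd10, also known as gankyrin, at 14.7 and 14.1 FPKM (-0.061). The last member, Psmc3ip, shares only its name with the ATPases, as it encodes a partner of meiotic recombinases, and it had the lowest ratio of the 48, with 11.8 and 8.79 FPKM (-0.39). Without Psmc3ip and Psme2b the median of the remaining members was 0.32 and 39 were above 0.

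Genes of proteasome subunits and of factors that act on the proteasome, without a Psm name, had a lower median ratio than the members. All 10 of those measured were above 0, with a median of 0.15, against 8 of 10 and a median of 0.066 at a common FPKM sum. Their ratios ran from 0.046 to 0.56, and the genes named next are the 4 with the largest. Adrm1, the ubiquitin receptor of the base, was at 18.6 FPKM in Ad-Ctl against 27.8 FPKM in Ad-Klf5 (0.56). Usp14, a ubiquitin protease that docks on the base, was at 12.2 and 18.0 FPKM (0.53), and Akirin2, needed for nuclear import of the proteasome, at 21.0 and 29.5 FPKM (0.47). Pomp, which dimerises core precursors, was at 16.4 and 19.99 FPKM (0.27).

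A list was built around Nfe2l1, with related factors, their partners and genes that act on its protein. Of the 13 genes of this list measured, 6 were above 0 and the median was -0.13. At a common FPKM sum it was 3 of 13 and -0.19. Nfe2l1 itself was lower after Ad-Klf5 (19.8 and 13.3 FPKM, ratio -0.54), and so was its small Maf partner Mafg, at 16.6 and 11.3 FPKM (-0.52). Nfe2l2 (Nrf2), which reads the same element, was higher, at 18.6 and 30.4 FPKM (0.68), as was Syvn1, the ligase that degrades Nfe2l1, at 17.1 and 23.4 FPKM (0.43). In the remaining difference none of these 4 kept its size and direction: Nfe2l1 was at 0.017, Mafg at 0.16, Nfe2l2 at -0.026 and Syvn1 at -0.29. Of 12 Nrf2 target genes measured, 9 were above 0, with a median of 0.081, which at a common FPKM sum was -0.022, with 5 above 0. The shuttle factors and partners of the unfoldase p97 had a median of -0.027, with 6 of 14 above 0, against -0.12 and 5 of 14 at a common FPKM sum. The genes of ubiquitin and its activating enzymes had a median of 0.14, with 8 of 9 above 0, or 5 of 9 at a common FPKM sum. Those of antigen processing had a median of 0.030, with 6 of 10 above 0, and at a common sum the median was -0.075, with 1 of 10.

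The COP9 signalosome and the initiation factor eIF3, both built on the same plan as the lid, and the chaperonin CCT were set beside the proteasome as other complexes of many subunits. All 9 COP9 genes were above 0 (median 0.26), as were all 7 CCT genes measured (0.17) and 11 of 13 eIF3 genes (0.21). The share above 0 over all genes was 47.9%. At a common FPKM sum 8 of 9 COP9 genes, 4 of 7 CCT genes and 9 of 13 eIF3 genes were above 0, with medians of 0.16, 0.063 and 0.11. On that scale 37.2% of all genes were above 0. The medians were lower than the 0.30 and 0.20 of all proteasome genes on the same scales. That of COP9 was above the median of the lid alone, which was 0.24, and 0.14 at a common FPKM sum. With 1 library per group no test of these differences was made. No gene of these lists was at least 1.5-fold higher, against 4.44% of all genes, and lists this short may hold none at that share.

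The authors' table also holds a mean of log2(FPKM + 1) for each of 2 groups. The names of these columns give no group. The values allow a mean of 2 libraries only with the first column as Ad-Klf5 and the second as Ad-Ctl, as described with the processing, and the rest of this account depends on that reading. In these means, which include the named libraries, the members differed by a median of 0.15, with 40 of 48 above 0 and 0 at least 1.5-fold higher. Over all genes the median of this difference was -0.00039. The shares of all genes above 0 and at least 1.5-fold higher were not computed for it. The named library was then taken out of each mean, which leaves what the other library of the group would hold. The remaining difference was above 0 in 23 of 48 members (47.9%), against 55.4% of 10145 genes, and its median was -0.010 over the members and 0.016 over all genes. It ran from -0.29 to 0.39. The higher values of the members in the named pair were thus not seen in the remaining difference. Nor was that of Klf5 itself, which was at 0.39 in the named pair and at -0.17 in the remaining difference. The loss was not limited to the members. Of the 5 mesothelial markers, 4 were at least 2-fold higher in the named pair, and their median in the remaining difference was -0.054. Some genes kept their side, such as Rsad2 (0.74 and 0.46). The cause of the loss was not tested.

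By role, the median of the remaining difference was 0.00093 for the alpha ring, -0.014 for the beta ring, 0.029 for the ATPases, -0.015 for the other base subunits, -0.087 for the lid and -0.017 for the chaperones. Of the 4 members at least 1.5-fold higher in the named pair, Psmb3 was at -0.068, Psmg2 at -0.085, Psmg4 at -0.053 and Psmd8 at -0.15. Psmb8 and Psmb9 were at -0.033 and -0.014, and Tap1 at 0.019. The activators and inhibitor were the group whose median stayed above 0.1, at 0.13. Psme2 was at 0.34, Psme2b at 0.39, Psme1 at 0.13 and Psme4 at 0.13, while Psme3 was at -0.0075 and Psmf1 at -0.29. As Psme2b is a near copy of Psme2, the values of these 2 cannot be taken as separate. Psme2, Psmf1 and Psmd14 of the lid (0.19) were on the same side of 0 in both readings. They were not singular in this, since many other members were too, such as Psma3 (0.071) and Psmc6 (0.12). Others changed side, such as Psmb2 (-0.11). Among the chaperones, Psmd5 was at 0.12. The remaining medians were 0.24 for the interferon-response genes, with 12 of 15 above 0 against 55.4% of all genes, 0.070 for COP9, -0.035 for CCT and -0.021 for eIF3. For the 5 mesothelial markers the median of the remaining difference was -0.054.

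**Figure D3:**
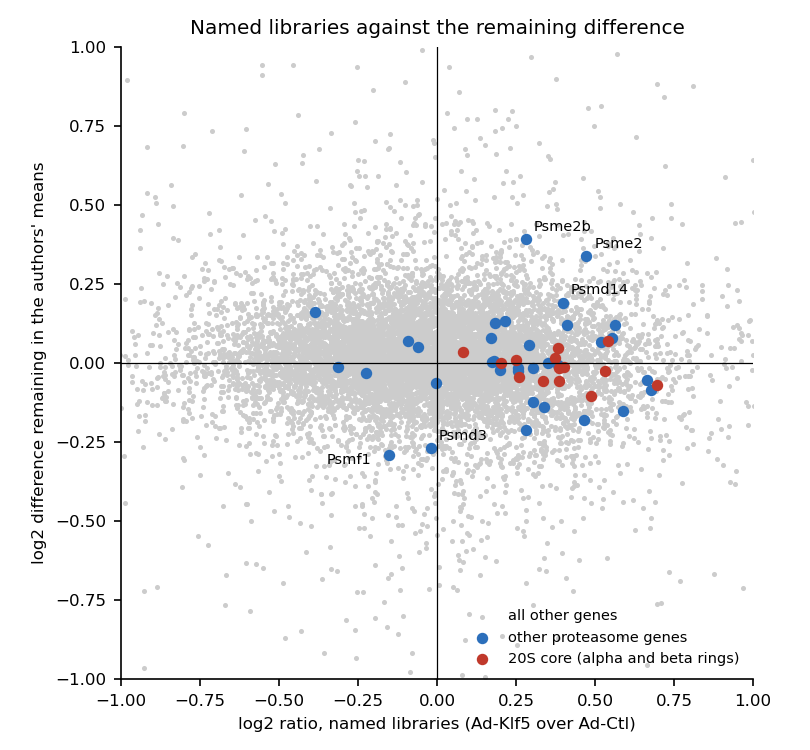
Log2 ratio of the named libraries (horizontal) against the log2 difference remaining in the authors' means (vertical) for each gene, both axes cut at -1 and 1. The core genes (red) lie right of 0 and between -0.11 and 0.071 on the vertical axis, and Psme2 and Psme2b stand above the other members at 0.34 and 0.39.

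Proteasome transcripts are short and abundant, and both properties went with the ratio over all genes. Spearman's rho between the ratio and exon length was -0.26 over 10142 genes and -0.25 over the 48 members, and with mean FPKM it was 0.13 and 0.32. These are descriptions over genes read from the same 2 libraries. The median exon length was 2804 bp for the members and 4334 bp for all genes. Among genes of 204 to 2429 bp, the shortest of 5 equal bins, the median was 0.12 over all genes and 0.34 over the 21 members. In the next bin, 2431 to 3642 bp, it was 0.025 over all genes and 0.36 over 14 members. Of the members, 32 lay in the highest of 5 bins of level, where the median was 0.36 for them and 0.084 for all genes. In bins 2 and 3 of level the members were below all genes, with medians of -0.066 against -0.046 (2 members) and -0.19 against -0.065 (4 members). The part of length and level in the values of the members was not tested. In the remaining difference, rho with exon length was 0.0998 over all genes and 0.025 over the members.

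**Figure D4:**
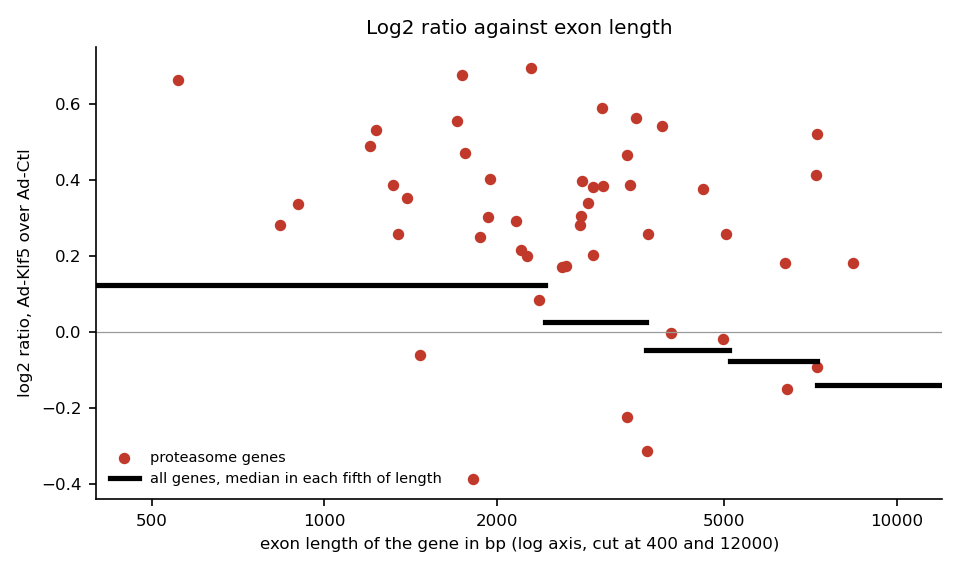
Log2 ratio of each proteasome gene (red points) against its exon length in bp (log axis), with the median of all genes in each of 5 equal bins of length (black bars). The bars fall from 0.12 to -0.14 with length, and 40 of the 48 points lie above 0.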

How the data were processed

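RNA of VSMCs infected with Ad-Ctl or Ad-Klf5 was sequenced, and samples were grouped by their titles, 1 library per group. Other label text conflicts with the study's methods: it names another cell line with a lentivirus, another medium and another sequencer. HISAT2 2.0.5, STAR 2.5.2b, StringTie, cutadapt and the build mm8 stand in the submitters' processing notes with no roles, while the study's methods name HTSeq and the human genome. The gene loci are those of GRCm38, and GENCODE vM21 holds 11255 of the 11275 gene IDs. The libraries were made with dUTP per the labels, and whether counting used strand is not given in the sources used here.

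Deposited by the authors were FPKM values of 2 named libraries, with no read counts, so depth is unknown and no counting interval was given. Low FPKM values showed no steps of whole reads. The authors also deposited a mean on the log2 scale, of log2(FPKM + 1), for each of 2 groups. The column names give no group. If the first is the mean of 2 Ad-Klf5 libraries and the second that of 2 Ad-Ctl libraries, taking out the named library leaves 0 rows below 0 and exact zeros in 15 and 16 rows (tolerance 1e-06). Exchanged, 119 rows fall below 0. The second libraries are not named in the labels and were not used as replicates. The table's fold changes, p-values and q-values come from the authors' own comparison and were not used.

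Rows sharing a symbol were summed, and log2 ratios were taken with a pseudocount of 1 FPKM for genes averaging 1 FPKM or more, a scale that shrinks the change of low genes. Fold means the ratio of FPKM + 1. With 1 library per group no test was possible, and counts and medians were set beside those over all genes. The members, gene lists and markers were chosen with earlier results of these data known. Genes were named by rule: Klf5, the highest and lowest ratio and level of each role, all immunoproteasome, activator, inhibitor and chaperone genes, members at least 1.5-fold apart, and up to 4 genes per other list by size of the ratio. The other members, the neighbours in the MHC and the motifs were added after their values were seen. Alternatives were pseudocounts of 0.1 and 5, a minimum of 5 FPKM or none, a common FPKM sum, centring on the median, the row with the higher mean, and the authors' means. The steps were tested on simulated data. Python 3.11.15, numpy 2.4.6, pandas 2.3.3, scipy 1.17.1, Biopython 1.88 and matplotlib 3.10.9 were used.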

Additional observations from a re-analysis of the deposited data

How the results depend on the processing

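Of 122 values recomputed under the alternatives, 108 stayed within the spread over members or within 1.5 times a count, 9 moved and 5 reversed. Without a minimum, and with the row of the higher mean, the members had the same values as reported and could only stay. Losses within a wide spread also counted as staying, as for the median of all members, 0.30 as reported and 0.15 in the authors' means. So did that of the immunoproteasome genes, -0.22 as reported and -0.014 in the remaining difference. That spread is between genes, since there are no replicates. The number of members at least 1.5-fold higher, 4 as reported, was 1 at a common FPKM sum, 0 in the authors' means and 0 in the remaining difference. In the authors' means the median was 0.16 for the alpha ring, 0.19 for the beta ring and 0.15 for the base ATPases, which follows from averaging with a second library. In the remaining difference the number above 0 was 23, and the medians were 0.00093 for the alpha ring and 0.029 for the ATPases. Below 0 there were the medians of all members (-0.010), the beta ring (-0.014), the non-ATPase base subunits (-0.015), the chaperones (-0.017) and the lid (-0.087), and the cause was not tested. Leaving out Psmc3ip and Psme2b was chosen after seeing the data. Leaving out a library and CPM were planned and not run, since the table holds no counts and 1 named library per group. No paired analysis was possible because each group has 1 named library. Depth is unknown, so differences of a few percent, as for Psmd2, cannot be called.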
